A study of Mus musculus with 4 samples.

Results

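The regulators of G-protein signalling (Rgs) were examined in cultured mouse molar tooth germs exposed to TCDD (2,3,7,8-tetrachlorodibenzo-p-dioxin), an agonist of the aryl hydrocarbon receptor. The group was selected on the measured signal of Rgs16, which was lower in every pairing of a TCDD with a DMSO array, so the values of Rgs16 between these groups are given as a description, and no test of them is used as support. Members were all probe sets annotated to 1 gene symbol among 10 named Rgs genes. Of these, 9 genes were measured, by 15 of the 10833 probe sets with 1 symbol, out of 8251 such genes in all. Rgs1 was not analysed here.

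The explants were mandibular molar regions of NMRI mouse embryos at embryonic day 14, kept for 24 h in organ culture with 10% fetal calf serum. The TCDD group had 1 µM TCDD, which was dissolved in DMSO, and the DMSO group had 0.65% DMSO, with 2 arrays per group. Each array came from a pool of about 60 explants, for which 3 experiments were combined. The medium label of DMSO replicate 2 alone lists ascorbic acid, and labelling started from 11 µg of RNA in each replicate 1 sample, from 8 µg in TCDD replicate 2 and from 7 µg in DMSO replicate 2, per the labels.

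Heterotrimeric G proteins relay signals from membrane-spanning receptors at the cell surface, and their alpha subunit is active while it holds GTP. Rgs proteins share a domain that speeds GTP hydrolysis by the alpha subunit and so shorten the signal. Members differ in which alpha subunits they act on and in the tissues that express them, and several are themselves induced by the pathways they restrain.

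As a check of the exposure, the P450 genes Cyp1a1 and Cyp1b1, which the receptor is known to switch on, rose in the TCDD explants by 2.88 ± 0.22 and 2.28 ± 0.21 (SE, log2 of signal + 16, limma adjusted p 0.000368 and 0.000918). Their other, dim probe sets differed by 0.10 (161831_at) and -0.10 (161368_r_at). Of the dental tissue markers, 10 of 12 measured mesenchyme markers and 9 of 13 epithelial markers had a mean signal of at least 50, while Krt14 averaged 8.32. The signals are MAS5 intensities scaled by the authors to a target of 100. With no detection calls used here, a mean of at least 50 over the 4 arrays served as the filter for the test, and the precision is limited by the number of arrays.

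Rgs16 acts on alpha subunits of the Gi and Gq classes and is known in mouse lymphocytes for damping chemokine receptor signals. Its main probe set (94378_at) had signals of 59.6 and 44.0 on the TCDD arrays, against 96.9 and 117.5 on the DMSO arrays. Both TCDD arrays were low and both DMSO arrays high, with a gap between the groups that is wider than the spread within either. The means were 51.8 ± 11 in TCDD and 107.2 ± 14.6 in DMSO (SD, n = 2 each), a ratio of 0.55 after 16 was added to each signal. On the log2(signal + 16) scale the difference was -0.87, and the 4 single array pairs ranged from -1.15 to -0.58. Within replicate number 1 it was -0.58 and within number 2 it was -1.15. In pooled tissue, fewer cells of a type and less RNA per cell cannot be told apart.

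The other Rgs16 probe set (161609_at) was dim and did not separate the groups. Its signals were 21.4 and 13.4 in TCDD, against 42.0 and 16.8 in DMSO, a log2 difference of -0.40. TCDD replicate 1 lay above DMSO replicate 2, and DMSO replicate 1 stood well above the other arrays. Of its 4 values, 3 had been stored as calendar days and were turned back into signals. The difference rests on DMSO replicate 1: it was 0.02 without that array and -0.81 without DMSO replicate 2.

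The promoter of Rgs16 is shown because the exposure acts through a receptor that binds DNA with its partner ARNT at the core letters GCGTG. The windows are RefSeq's, build GRCm38.p6, from 250 bases before to 50 bases after the start of the gene, 5′ to 3′, and are set beside those of Rgs3, the other bright member whose TCDD arrays were both lower, and of Rgs19, whose brighter probe sets were higher. Capitals mark GCGTG or, for the opposite strand, CACGC.
Rgs16, chr1:153740103-153740402, strand +: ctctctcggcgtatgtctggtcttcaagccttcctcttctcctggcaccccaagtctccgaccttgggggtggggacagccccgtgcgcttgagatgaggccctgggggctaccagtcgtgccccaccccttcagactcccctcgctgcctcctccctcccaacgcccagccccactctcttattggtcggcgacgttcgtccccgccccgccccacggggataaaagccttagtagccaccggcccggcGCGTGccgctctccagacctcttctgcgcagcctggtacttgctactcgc
Rgs3, chr4:62559597-62559896, strand +: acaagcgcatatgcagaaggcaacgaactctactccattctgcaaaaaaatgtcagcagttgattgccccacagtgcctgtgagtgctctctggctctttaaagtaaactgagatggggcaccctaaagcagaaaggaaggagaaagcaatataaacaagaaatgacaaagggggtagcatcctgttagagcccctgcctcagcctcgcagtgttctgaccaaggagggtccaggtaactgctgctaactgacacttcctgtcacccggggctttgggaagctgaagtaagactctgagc
Rgs3, chr4:62619422-62619721, strand +: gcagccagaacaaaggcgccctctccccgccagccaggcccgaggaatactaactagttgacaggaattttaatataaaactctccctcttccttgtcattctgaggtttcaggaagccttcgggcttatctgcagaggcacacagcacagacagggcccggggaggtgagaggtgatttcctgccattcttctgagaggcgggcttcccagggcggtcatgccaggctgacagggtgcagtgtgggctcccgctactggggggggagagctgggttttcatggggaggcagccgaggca
Rgs19, chr2:181693928-181694227, strand -: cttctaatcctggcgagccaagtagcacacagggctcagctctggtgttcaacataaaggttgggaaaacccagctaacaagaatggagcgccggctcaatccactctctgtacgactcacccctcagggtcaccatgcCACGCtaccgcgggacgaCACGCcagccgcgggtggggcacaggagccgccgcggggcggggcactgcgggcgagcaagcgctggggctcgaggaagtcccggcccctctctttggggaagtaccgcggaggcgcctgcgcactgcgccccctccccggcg

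GCGTG occurred once in the Rgs16 window, at bases 251 to 255, which are the first transcribed bases in this annotation. Neither Rgs3 window held it, and the Rgs19 window shown held 2 copies in the opposite orientation, at bases 140 to 144 and 158 to 162. The letters are common: 32.4% of all 32851 promoter windows of 300 bases held GCGTG on either strand. Both Rgs3 windows held TATAAA (bases 151 to 156 and 74 to 79), as did Rgs4 and Rgs9, against 13.6% of all windows on either strand. The Rgs16 window held CCAAT on the opposite strand (bases 183 to 187), as did the windows of Rgs4, Rgs5 and Rgs9. The Rgs2 window held it in the forward orientation (bases 157 to 161). Of all windows, 37.4% held it on either strand. Of the other members, Rgs2, Rgs4 and Rgs7 held GCGTG 1 time each, Rgs5, Rgs9 and Rgs10 held none, and the other windows of Rgs19 held 1 and 0. TGACGTCA, the cAMP response element, was in none of the members' windows (1.79% of all), and CACGTG was in 1 window each of Rgs7 and Rgs19 (7.15% of all). A match is a description of the letters, and binding was not measured.

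**Figure D1:**
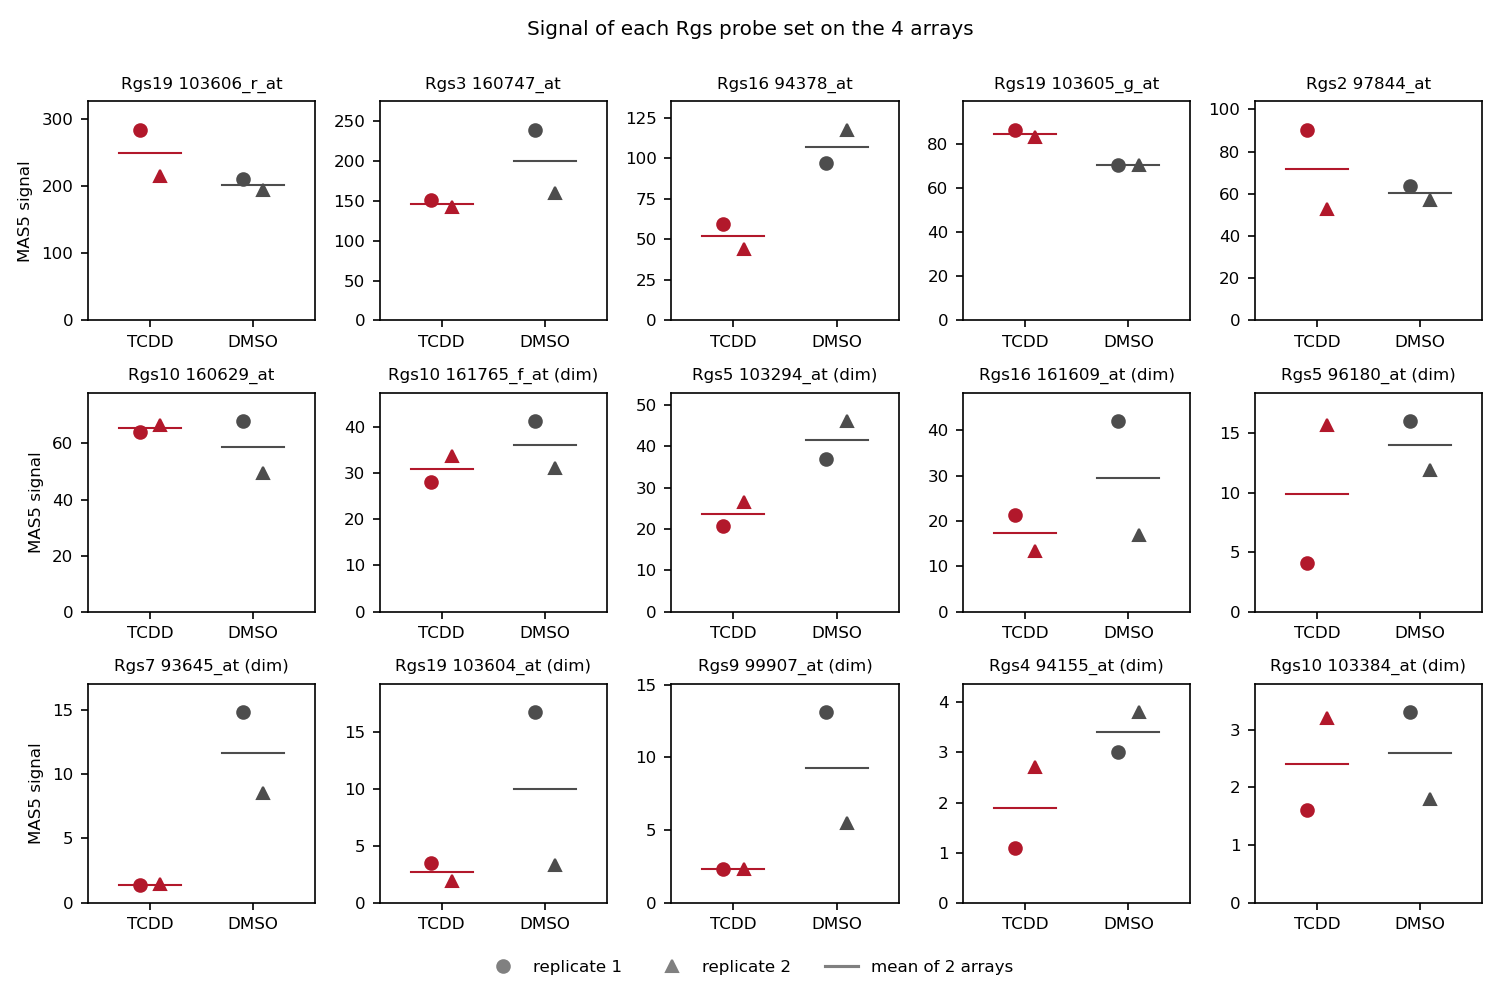
MAS5 signal (linear, from 0) of the 15 Rgs probe sets, ordered by mean signal, with TCDD arrays on the left and DMSO arrays on the right of each panel. Circles are replicate 1, triangles replicate 2 and lines the mean of 2 arrays, and "dim" marks a mean under 50. At 94378_at of Rgs16 the TCDD arrays were 59.6 and 44.0 and the DMSO arrays 96.9 and 117.5.

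Of the members that act on both Gi and Gq alpha subunits, Rgs3 was the brightest in the lower direction. One of its isoforms, which carries a PDZ domain, links ephrin-B proteins to G-protein signalling. Its probe set (160747_at) had signals of 150.6 and 141.7 in TCDD, against 239.1 and 160.3 in DMSO. The groups did not overlap, but DMSO replicate 2 lay close to the TCDD arrays and DMSO replicate 1 stood apart. The log2 difference was -0.39 ± 0.23 (SE), with a 95% interval of -0.89 to 0.11 and a limma adjusted p of 0.997. Without DMSO replicate 1 the difference was -0.12.

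Rgs4, which is best known from brain, was near the bottom of the scale, with signals of 1.1 and 2.7 in TCDD and 3.0 and 3.8 in DMSO (94155_at). Rgs5, a marker of pericytes, the contractile cells around small vessels, had signals of 20.6 and 26.6 in TCDD, against 37.0 and 46.1 in DMSO, at its brighter probe set (103294_at). All of the TCDD signals of both genes were below all of the DMSO signals at these probe sets. The log2 differences were -0.12 for Rgs4 and -0.54 for Rgs5, and that of Rgs5 was about alike within the replicate numbers, at -0.53 and -0.54. The second Rgs5 probe set (96180_at) overlapped between the groups, with 4.1 and 15.7 in TCDD and 16.0 and 11.9 in DMSO. None of these 3 probe sets reached the filter. Of the 4 values each, 3 of Rgs4 and 2 of Rgs5 103294_at had been stored as calendar days, and with such values set to 16 the differences were 0.38 and -0.84. That setting replaced all Rgs4 values but the 3.0 of DMSO replicate 1, and only the TCDD values of Rgs5. Both results follow from which arrays were replaced, so they do not bear on the differences.

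Pericyte and smooth muscle markers did not separate the groups. Of 10 listed, 9 were measured, and their summed signals were 888 and 682 in TCDD, against 808 and 727 in DMSO. Of the 5 that reached the filter, 0 were apart between the groups. Of all probe sets that reached it, 14.6% were lower and 15.3% higher without overlap, so 0 of 5 says little. Myh11, the smooth muscle myosin gene, averaged 3.78. The summed endothelial markers, 10 of 11 measured, were 763 and 753 in TCDD, against 811 and 783 in DMSO, but 5 of the 10 had a positive difference and 5 a negative one. Pecam1 set the sums apart: without it, an alternative chosen after seeing the data, they were 720 and 709 in TCDD and 704 and 733 in DMSO, with overlap. Emcn was higher without overlap (0.35), and Tek averaged 8.35. The part of these cells in the values of Rgs16, Rgs3 and Rgs5 was not tested.

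Rgs2 is selective for Gq alpha subunits and is switched on quickly by many stimuli. It had signals of 90.3 and 53.0 in TCDD, against 63.6 and 56.9 in DMSO (97844_at). The TCDD arrays lay on either side of both DMSO arrays, and TCDD replicate 1 alone was high. The log2 difference was 0.17 ± 0.26 (SE), with a 95% interval of -0.40 to 0.74, and it was -0.14 without TCDD replicate 1.

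Rgs19, also known as GAIP, binds Gi-class alpha subunits such as the product of Gnai3. Its brightest probe set (103606_r_at) had signals of 284.2 and 215.2 in TCDD, against 210.5 and 194.7 in DMSO. A second one (103605_g_at) had 86.4 and 83.0 in TCDD and 70.3 on both DMSO arrays. At both, each TCDD array was above each DMSO array, by a narrow margin at the first. The log2 differences were 0.27 ± 0.21 and 0.22 ± 0.21 (SE), with 95% intervals of -0.19 to 0.73 and -0.25 to 0.70. Without TCDD replicate 1 that of 103606_r_at was 0.08. The remaining, dim probe set (103604_at) had 3.5 and 1.9 in TCDD and 16.7 and 3.3 in DMSO, with overlapping groups and a log2 difference of -0.43.

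Rgs10, a small member that acts on Gi-class subunits and is abundant in mouse microglia, did not separate the groups at any of its 3 probe sets. The brightest (160629_at) had 64.2 and 66.7 in TCDD, against 68.0 and 49.5 in DMSO. Both TCDD arrays lay between the DMSO arrays, and the log2 difference was 0.13 ± 0.24 (SE, 95% interval -0.39 to 0.66). It was 0.31 without DMSO replicate 1 and -0.04 without DMSO replicate 2. The other probe sets differed by -0.15 (161765_f_at) and -0.01 (103384_at).

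Macrophage markers were higher in TCDD as sums. All 13 listed were measured, with summed signals of 1092 and 1083 in TCDD and 921 and 821 in DMSO, and 9 of 9 that reached the filter had a positive difference. That holds at the brightest probe set of each gene. At these, 4 of the 9 were higher without overlap, against 15.3% of all probe sets that reached the filter, and 0 were lower, against 14.6%. The median of the 9 was 0.28 there, but 0.07 when all probe sets of a gene were averaged. Of the dim ones, the defining members Itgam and Adgre1 differed the other way, by -0.25 and -0.28, with Itgam averaging 3.6. Most dim probe sets of the array were also below 0 (4719 of 6639). The remaining dim ones, Fcer1g and Mrc1, differed by -0.04 and 0.32. Epithelial markers summed to 3010 and 3294 in TCDD and 2251 and 2940 in DMSO. Without Dsp and Perp, an alternative also chosen after seeing the data, the sums were 874 and 989 in TCDD and 922 and 1001 in DMSO, with overlap. Of the 13, 2 were higher without overlap (Dsp and Perp), against 10.8% of all probe sets with no filter. Lower were 3 (Cdh1, Fgf4 and the dim Krt14), against 20.8%. Lymphocyte and other leukocyte markers, 11 of 13 measured, summed to 160 and 132 in TCDD and 208 and 122 in DMSO, and 0 reached the filter. The part of these cells in the values of Rgs19 and Rgs10 was not tested.

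Rgs7 and Rgs9 are the neuronal members that pair with the beta subunit encoded by Gnb5, and Rgs9 ends the light response in photoreceptors. Rgs7 (93645_at) had signals of 1.4 and 1.5 in TCDD, against 14.8 and 8.5 in DMSO. Rgs9 (99907_at) had 2.3 on both TCDD arrays, against 13.1 and 5.5 in DMSO. Both were lower in TCDD without overlap, by -0.65 and -0.45 on the log2(signal + 16) scale, but all 8 values were far under the filter and had been stored as calendar days. With such values set to 16 both differences were 0.00, which is fixed in advance because every array then has the same value. Neuron and glia markers, 9 of 11 measured, summed to 807 and 685 in TCDD and 774 and 771 in DMSO, with overlap.

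The filter was reached by 6 Rgs probe sets, of 5 genes, each with means of at least 50 in both groups. Of the 5 other than Rgs16, 0 passed limma's adjusted p of 0.05, where 4 of 5783 probe sets did (0.0692%). At an unadjusted limma p under 0.05 there were 0 of the 5, and 150 of all 5783 probe sets, itself a share below 0.05. With 2 arrays per group, 0 of 5 does not show that these probe sets were unchanged. Lower in TCDD without overlap were 2 of the 6 (Rgs16 and Rgs3), against 14.6% of all probe sets, and higher were 2 (both of Rgs19), against 15.3%. Rgs16 was chosen for this direction, and without it the count was 1 of 5, near the background. Rgs3 lay just inside the condition that chose Rgs16, with a smallest pair difference of -0.08, and among the dim probe sets Rgs19 103604_at lay just outside, with 1 pair at 0.01.

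**Figure D2:**
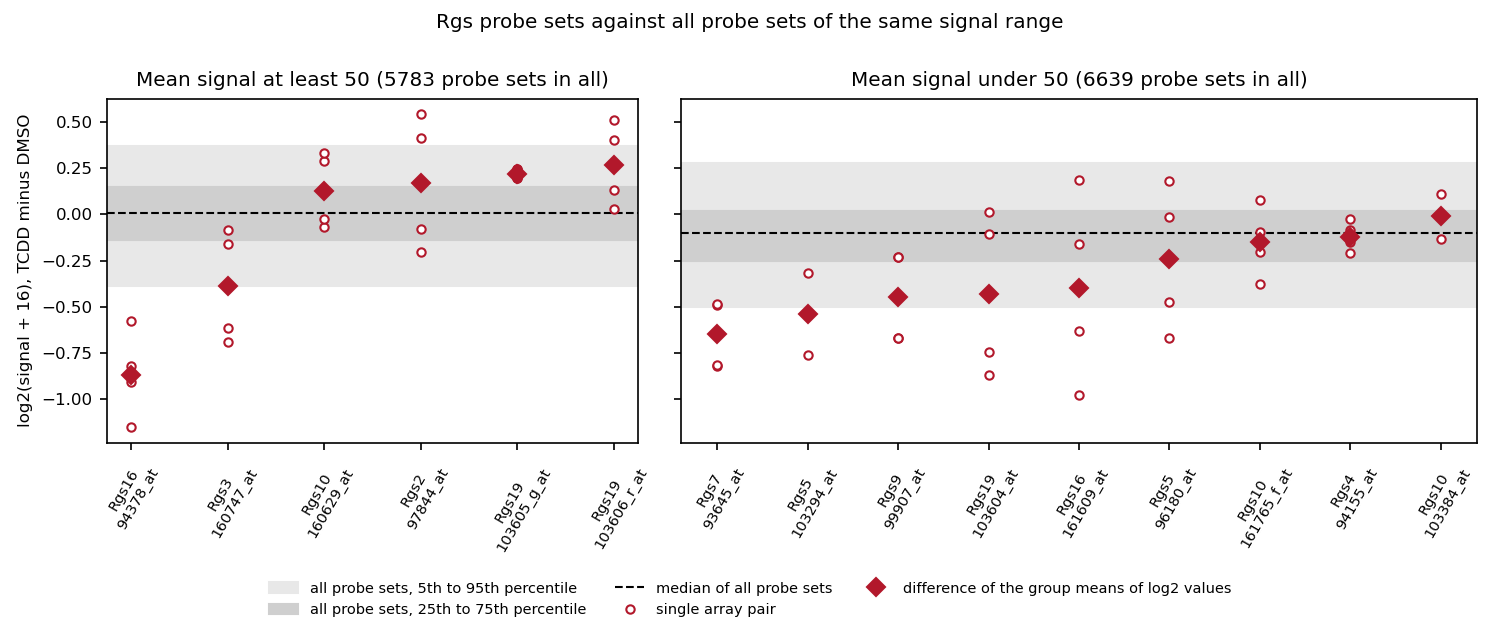
Difference of TCDD minus DMSO in log2(signal + 16) for the Rgs probe sets that averaged at least 50 in signal (left) or less (right). Open circles are the 4 single array pairs, diamonds the difference of the group means, and the bands the spread of all 5783 or 6639 probe sets. Rgs16 94378_at, selected on these values, is at -0.87, the other 5 bright Rgs probe sets lie between -0.39 and 0.27, and the median of all dim probe sets, -0.10, is itself below 0.

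Most dim probe sets of the array were lower in TCDD, the Rgs ones among them. All 9 dim Rgs probe sets had a negative difference, with a median of -0.40, and 4719 of all 6639 dim probe sets were below 0, with a median of -0.10. Lower without overlap were 4 of 9, against 26.2% of all dim probe sets, and higher were 0 of 9, against 6.88%. After quantile normalization between arrays those shares of all dim probe sets were 15.9% and 14.9%, and the median of all dim probe sets was 0.00, with 3362 below 0. Of the 9 dim Rgs probe sets, 8 were then below 0, with a median of -0.28, and 3 were lower without overlap. The bright Rgs16 94378_at differed by -0.83 under that normalization. Over all 15 Rgs probe sets and no filter, 6 were lower without overlap, against 20.8% of all, and 2 were higher, against 10.8%. The 6 include Rgs16 94378_at, which was chosen for this direction, and the 4 dim ones, so they are no support for a shared direction.

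On the mouse chromosomes of GRCm38.p6, 6 of the 10 named genes lie on chromosome 1. Rgs16 is next to Rgs8 there, with no protein-coding gene between them, and Rgs4 is next to Rgs5. Rgs8, not one of the members, had signals of 23.2 and 27.9 in TCDD and 32.9 and 25.5 in DMSO (99553_f_at). These overlap, as do those of the dim probe set of Rgs16. The main probe set of Rgs16 did not overlap, but the gene was chosen for that. No contrast between these neighbours is therefore drawn. Rgs4 (94155_at) and Rgs5 (103294_at) were both dim and both lower without overlap. Rgs9 lies on chromosome 11 between Axin2, whose protein has an Rgs domain, and Gna13, which encodes an alpha subunit.

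The genes most like Rgs16 over the 4 arrays were found by the Euclidean distance between log2(signal + 16) profiles, each centred on its own mean. The nearest 4 were Imp4 (distance 0.28), a gene of ribosome assembly, Rag1 (0.29), the recombinase gene of lymphocytes, Ankrd46 (0.29) and Arfgap2 (0.30), which encodes a GTPase-activating protein of the vesicle coat cycle. Their log2 differences were -0.63, -0.82, -0.62 and -0.58. Imp4 had signals of 99.5 and 89.3 in TCDD and 142.8 and 167.4 in DMSO. In each of the 4, as in Rgs16, TCDD replicate 2 was the lowest array and DMSO replicate 2 the highest, and with 4 arrays such a likeness is a description. The shared direction and array order largely follow from the search, since Rgs16 was chosen for being lower in TCDD. Rag1 had 60.4 and 30.3 in TCDD and 77.9 and 102.1 in DMSO, so it reached the filter through its DMSO signals.

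No gene of the wider G-protein pathway passed the test. The 6 lists held 123 genes, of which 80 could be measured and 36 reached the filter. Of these 36, 0 passed limma's adjusted p, and 18 were above and 18 below 0. Lower without overlap were 7 (19.4%, against 14.6% of all probe sets), and higher were 6 (16.7%, against 15.3%). The list medians ran from -0.23 to 0.06 on the log2 scale, beside 0.01 for all 5783 probe sets.

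Of the alpha subunits, which Rgs proteins act on, 8 of 15 listed reached the filter, with a median of -0.06. Gna13 had 289.0 and 189.6 in TCDD, against 169.8 and 148.3 in DMSO, a log2 difference of 0.52 ± 0.23 (SE). Gnai1 had 172.0 and 136.4 in TCDD, against 97.6 and 123.0 in DMSO, a difference of 0.43 ± 0.22 (SE). Gnai2 and Gnai3, the bright Gi-class genes, differed by -0.15 ± 0.14 and -0.08 ± 0.17 (SE). These 4 genes were named because the groups were apart at these probe sets. Of the 8, 2 were higher without overlap, against 15.3% of all probe sets, and 2 lower, against 14.6%. However, 2 further probe sets of Gnai2 differed by 0.46 (99597_at) and 0.07 (99598_g_at). The dim second probe set of Gnai1 (97195_at) overlapped, with a difference of 0.04. That of Gna13 (104316_at), also dim, differed by 0.27. Of the 5 beta and gamma subunits that reached the filter, 0 were apart between the groups (median 0.06).

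Of the receptors, 9 of 38 listed reached the filter, with a median of 0.03. Ackr3, an atypical receptor that takes up the chemokine CXCL12, had 352.8 and 396.0 in TCDD, against 180.5 and 288.6 in DMSO, a log2 difference of 0.67 ± 0.23 (SE). Cxcr4, the signalling receptor of the same chemokine, had 92.4 and 79.7 in TCDD, against 71.2 and 66.9 in DMSO (0.26 ± 0.22, SE). Both were higher in each array pair, whereas S1pr2, a sphingosine-1-phosphate receptor, was lower in each, and all were named for this. Of the 9 receptors, 3 were higher without overlap, against 15.3% of all probe sets, and 1 lower, against 14.6%. S1pr2 had 67.6 and 142.4 in TCDD and 144.1 and 149.6 in DMSO, so that its difference of -0.50 ± 0.28 (SE) rests on TCDD replicate 1.

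Among other genes that end or carry the signal, Grk5, a kinase that switches off active receptors, had 43.9 and 56.1 in TCDD, against 66.7 and 71.8 in DMSO (-0.37 ± 0.23, SE). Prkar1b, a regulatory subunit of protein kinase A, differed by -0.67 ± 0.24, and Plcb1, a phospholipase C activated by Gq, by -0.42 ± 0.21 (SE). A second probe set of Prkar1b (94944_at) differed by 0.28, against that direction. The dim further probe sets of Plcb1 differed by -0.04 (92465_at) and -0.43 (92467_g_at). Axin1, a Wnt pathway scaffold with an Rgs domain, differed by 0.36 ± 0.20, and Rgs14 by -0.30 ± 0.24 (SE). The limma adjusted p was 0.997 for each of the 12 pathway genes named here.

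**Figure D3:**
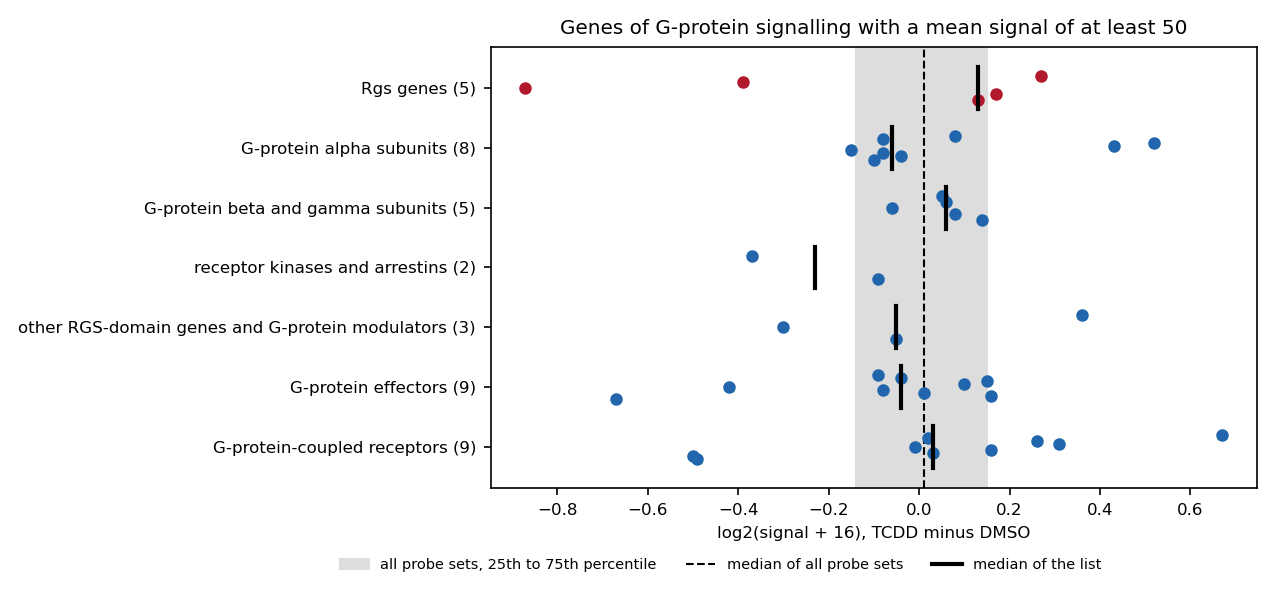
Difference of TCDD minus DMSO in log2(signal + 16), 1 point per gene at its brightest probe set, for the 5 Rgs genes (red) and 6 lists of G-protein signalling genes (blue), where signals averaged at least 50. Black bars are the medians of each row, and the grey band holds the middle of all probe sets, from -0.14 to 0.15. Rgs16, selected on these values, is the lowest point shown, at -0.87. The bar of the Rgs genes is at 0.13, the value of Rgs10, and the medians of the 6 lists lie between -0.23 and 0.06.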

How the data were processed

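Per the series' design text, the authors scanned and analysed 1 murine U74v2A array per pool with Affymetrix Microarray Suite 5.0 and scaled it to a target signal of 100. The deposited values are MAS5 signals, a linear hybridisation intensity per probe set and array. Of 49952 cells, 18515 (37.1%) held the serial number of a calendar day, because a value such as day.month had been read as a date. They were turned back, and each array's mean, trimmed by 2% on both sides, was then 100.05. Symbols came from the platform annotation (66 probe sets were controls, 10833 had 1 symbol, 396 several and 1193 none).

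limma 3.58.1 in R 4.3.3 (lmFit, eBayes with a trend) was run on log2(signal + 16), which understates changes of dim genes, over the 5783 probe sets with a mean of at least 50, with Benjamini-Hochberg adjustment at 0.05. No exact permutation test was run, since 2 arrays against 2 allow no two-sided p below 0.33. On simulated data for TCDD against DMSO with 5783 probe sets, the share of changes recovered was 24.2% at 1.5-fold, 80.4% at 2-fold and 100% at 4-fold. The folds were of signal + 16, the noise was independent between arrays, and many more probe sets changed than were called here. Those shares may therefore not hold for these data. Members and lists were chosen with earlier results of these data known. Named beside the members were Cyp1a1, Cyp1b1, the 4 profiles nearest to Rgs16 and, per list, up to 2 genes in each direction with the same sign in all array pairs. Other gene names were chosen after their values were seen. The labels do not say whether pools of the groups came from the same experiments. Alternatives changed the offset, filter, normalization, repair, variance trend, replicate block and arrays.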

Additional observations from a re-analysis of the deposited data

How the results depend on the processing

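The log2 difference of Rgs16 94378_at, -0.87, was -0.56 with an offset of 64 and -1.04 with an offset of 1 and ranged from -1.03 to -0.70 with 1 array left out. Its direction was fixed by its choice and is no sign of stability. Rgs probe sets lower without overlap numbered 2, which became 6 without the filter (of 15, against 20.8% of all probe sets), 1 with a minimum mean of 100 (of 2, against 13.7%), and 2 to 3 with 1 array left out (of 6, against 29.9% to 33.5%). All of these counts but that at a minimum mean of 100 include Rgs16 94378_at, which was chosen for this direction. Among all probe sets, 4 passed limma's test after adjustment, against 2 when no filter was used and 2 to 5 with 1 array left out. With a replicate block 32 passed, 1 of them an Rgs probe set, that of Rgs16, which was chosen on this contrast, so that its call is no support. The labels do not say that the numbers pair the samples. Deviations of same-numbered arrays from their group means correlated at 0.38 across probe sets. Rgs probe sets passing numbered 0 in each other alternative run. For the other 14 Rgs probe sets, 20 of 126 alternative values moved by more than the spread between replicates. Those that changed sign or became 0.00 numbered 13, the latter where values stored as calendar days were set to 16. The 126 include the replicate block, which cannot move these differences. With no probe-level data, signal over background limits the dim members.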

Other observations

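The array held 4 further Rgs genes that were not among the members. Rgs14, which also binds Gi-class subunits through a second motif, had signals of 54.4 and 49.4 in TCDD, against 78.5 and 57.6 in DMSO, lower without overlap. Rgs6, a relative of Rgs7, had 8.5 and 11.9 in TCDD and 18.7 and 8.8 in DMSO (94568_at), with overlap. Rgs11 overlapped too, with 27.4 and 6.7 in TCDD and 30.5 and 19.6 in DMSO at its brighter probe set (102650_at). With Rgs8, all 4 had a lower mean in TCDD, and 1 of them, Rgs14, reached a mean of 50. Of all probe sets at that mean or more, 14.6% were lower without overlap, and 4719 of 6639 dim ones were below 0. The dimmer Rgs11 probe set (161309_r_at) differed by -0.01.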
